A study of Caenorhabditis elegans with 3 samples.

Results

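The regions described here are 307 of the 1500 regions of highest signal in chromatin immunoprecipitation and sequencing (ChIP-seq) of tagged MML-1, those that lay in introns and away from promoters. They were chosen by measured values. The regions called on all 3 replicates together were ordered by the signal that the authors deposited, and the first 1500 of 30000 were taken. The authors label this pooled list as peaks and background together, so a region in it need not be a site of MML-1 binding. Of the 307 regions, 34 were among the authors' reproducible peaks. The intronic regions after rank 1500, used below for comparison, come from the same pooled list. A region was kept when its summit lay in the body of a protein-coding gene, in no annotated exon, and outside every promoter window. Promoter windows were set around every start of a protein-coding transcript in the WBcel235 annotation, with 1000 bp before it and 200 bp after it. Of the other regions among the first 1500, 602 lay in promoter windows, 349 between genes and 242 in exons.

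The animals were whole L3 larvae of Caenorhabditis elegans, males and females pooled, of strain OP198, which carries the unc-119(ed3) mutation on chromosome III and the integrated transgene wgIs198. The transgene expresses MML-1 with a tag that the labels call eGFP in one field and a C-terminal fusion of GFP and FLAG in another, so the immunoprecipitated protein is the transgene's copy in an animal that also has its own mml-1 gene. There were 3 biological replicates of 1 group and no second condition: the labels give replicates 1 and 2 a size range of 150 to 350 and the CGC stock centre as source, and replicate 3 sonication and the submitting laboratory. The depth of each library is unknown because the lists give no read totals, and the tests below have regions as units and do not cover the spread between animals.

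MML-1 belongs to the Mondo family of transcription factors, which bind DNA through a basic helix-loop-helix and a leucine zipper and whose mammalian relatives respond to sugars and their phosphates. Its partner is the Max-like protein MXL-2, and proteins of this family bind the E-box CACGTG. Introns of worm genes can hold enhancers, internal promoters and small RNA genes, so a region in an intron need not act on the gene around it.

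The sites at the strongest intronic regions are shown first because they carry the sequence that the later comparisons turn on. Each line gives the host gene, the position in WBcel235 and the bases of the plus strand, 5′ to 3′, from the RefSeq copy of the assembly, with CACGTG in capitals. They belong to the 12 regions of highest rank with CACGTG on the chromosomes shown.
Y62E10A.13, chrIV:13395444-13395483: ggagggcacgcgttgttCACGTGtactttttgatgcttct
Y43F8B.2, chrV:19529359-19529398: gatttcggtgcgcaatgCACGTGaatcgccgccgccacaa
abts-4, chrX:6750262-6750301: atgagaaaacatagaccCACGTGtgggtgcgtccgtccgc
E01G4.3, chrII:13469359-13469398: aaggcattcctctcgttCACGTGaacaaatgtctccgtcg
H18N23.2, chrX:17633314-17633353: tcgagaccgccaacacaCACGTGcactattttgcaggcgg
epg-9, chrIV:2602081-2602120: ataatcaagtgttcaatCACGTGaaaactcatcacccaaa
mdl-1, chrX:6742965-6743004: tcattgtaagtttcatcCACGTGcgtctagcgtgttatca
atf-4, chrX:14810064-14810103: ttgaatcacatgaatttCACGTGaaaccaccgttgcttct
daf-5, chrII:14043042-14043081: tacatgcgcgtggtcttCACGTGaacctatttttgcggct
nhr-19, chrII:9603670-9603709: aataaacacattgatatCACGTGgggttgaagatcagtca
aak-2, chrX:16796938-16796977: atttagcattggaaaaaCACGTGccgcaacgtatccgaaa
F09A5.3, chrX:13145345-13145384: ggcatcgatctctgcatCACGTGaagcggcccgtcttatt

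The strongest intronic regions without CACGTG are shown for contrast, as the bases within 60 bp of the summit, with CACATG or its reverse complement CATGTG in capitals where present. The window at C27A7.5 holds that related hexamer in 2 places, and those at cutl-18 and pxn-1 hold neither hexamer.
C27A7.5, chrV:12157760-12157880: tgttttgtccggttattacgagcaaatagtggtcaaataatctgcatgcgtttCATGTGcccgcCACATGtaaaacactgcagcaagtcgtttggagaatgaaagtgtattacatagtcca
cutl-18, chrV:11314109-11314229: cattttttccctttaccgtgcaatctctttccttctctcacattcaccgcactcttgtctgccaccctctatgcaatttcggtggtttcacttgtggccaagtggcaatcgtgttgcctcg
pxn-1, chrV:8500474-8500594: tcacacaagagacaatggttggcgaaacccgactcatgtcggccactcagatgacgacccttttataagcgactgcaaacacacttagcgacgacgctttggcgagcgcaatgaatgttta

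The strongest intronic regions ranked near the top in every replicate. The highest, in intron 1 of 3 of Y62E10A.13, a 4080 bp intron, was also the highest region of the whole pooled list, with a signal of 841.7. It ranked 1, 1 and 3 in replicates 1, 2 and 3. The region in intron 4 of Y43F8B.2, at pooled rank 4, ranked 9, 7 and 2. That in intron 17 of abts-4, a gene of the anion and bicarbonate transporter family, had pooled rank 7 and ranked 8, 8 and 5. These 3 regions were among the first 10 of each replicate.

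The next intronic regions lay in E01G4.3 and in several regulatory genes. At E01G4.3, pooled rank 15, the ranks in replicates 1, 2 and 3 were 17, 20 and 12. In daf-16, which encodes the FOXO factor of insulin signalling, the region at pooled rank 22 lay in a 12401 bp intron and ranked 18, 21 and 66. At H18N23.2, pooled rank 24, the ranks were 31, 38 and 14. For all 3 genes each replicate placed the region among its first 100.

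In epg-9, an autophagy gene, the region at pooled rank 28 ranked 23, 40 and 23. In mdl-1, which encodes a Mad-like member of the Max network, a region in the last intron, of 289 bp, had pooled rank 30 and ranked 24, 22 and 38. In atf-4, a bZIP factor gene, pooled rank 49, the ranks were 38, 57 and 113. In daf-5, a Ski-related gene of the TGF-beta dauer pathway, the region at pooled rank 51 ranked 49, 33 and 146. Replicate 3 ranked both of these last regions lower than replicates 1 and 2 did.

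Further down, single replicates began to drop out. In nhr-19, a nuclear hormone receptor gene, the region at pooled rank 61 still ranked 77, 85 and 60. In aak-2, a catalytic subunit of AMP-activated kinase, pooled rank 68, the ranks were 61, 462 and 47. In F09A5.3, pooled rank 69, they were 40, 11075 and 76. In pgph-2, pooled rank 76, the ranks were 718 in replicate 1 and 32 in replicate 3, and replicate 2 had no region within 200 bp. Replicate 2 was the low one at all of the last 3 genes. The remaining regions among the 20 highest, at C27A7.5, nhx-8, D2023.3, cutl-18, abts-1 and pxn-1, ranked between 45 and 349 in all 3 replicates.

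The authors also deposited a list of reproducible peaks, which are the regions of the pooled list above rank 196, and 34 of the 307 intronic regions were among them. That is 11.1% (95% exact interval 7.79 to 15.1), beside 13.0% of all of the first 1500 regions. Replicate 1 had 33 of the 34 among its first 1500 regions, replicate 2 had 27 and replicate 3 had 32. The highest of the 10 that were missing from the first 1500 of at least 1 replicate were those at F09A5.3 and pgph-2, followed by dhc-4, T07E3.4, C06G1.1 and the second region in pkg-2. At dhc-4, a dynein heavy chain gene, the ranks were 164, 98 and 4945. At C06G1.1 they were 133, 691 and 4624, so at both it was replicate 3 that ranked the region low. At T07E3.4 the ranks were 63 and 170 in replicates 1 and 3, and at pkg-2, pooled rank 162, they were 137 and 92. Replicate 2 had no region within 200 bp of either.

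**Figure D1:**
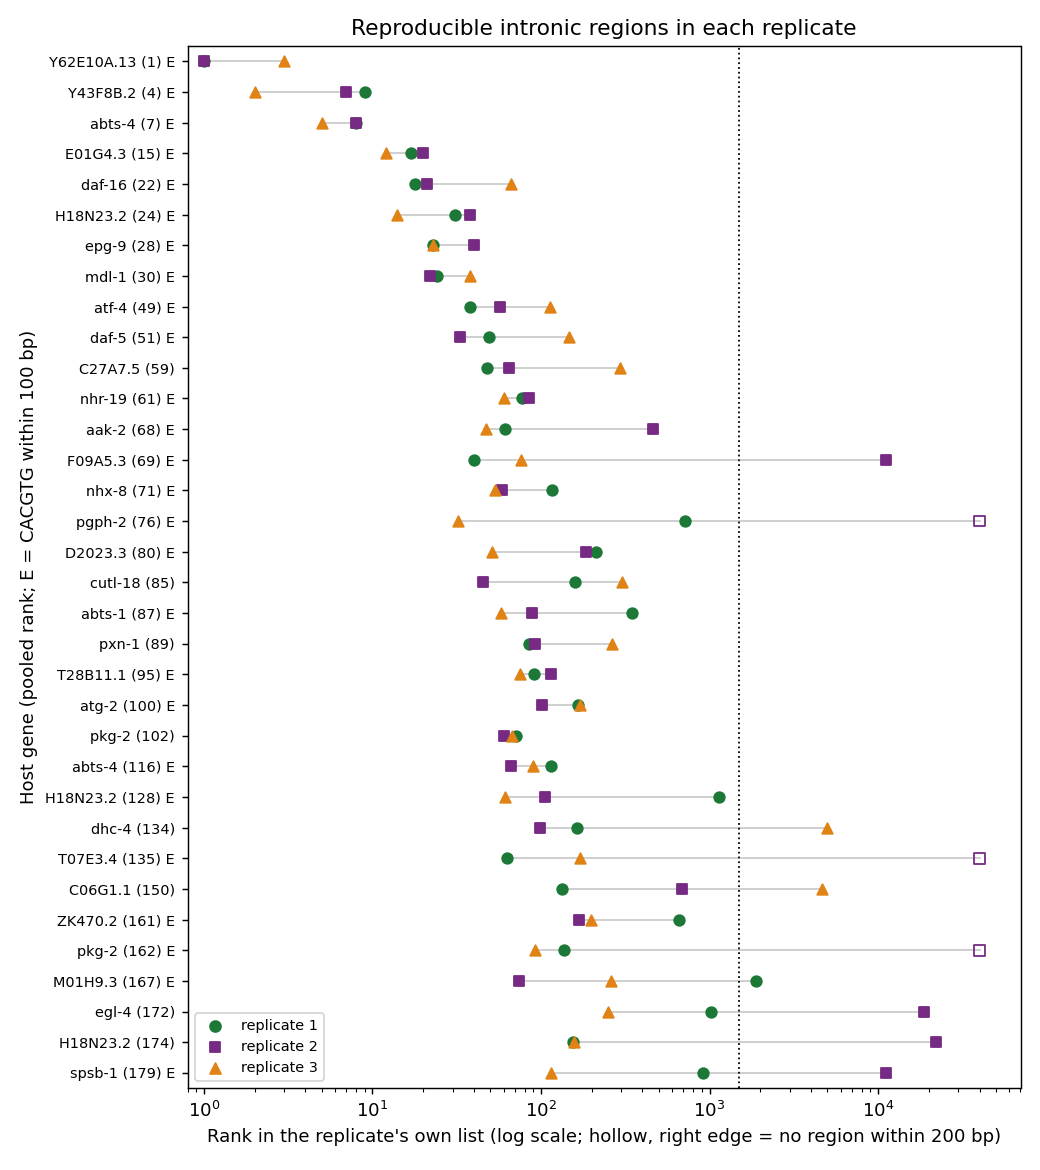
Rank of each of the 34 reproducible intronic regions in the list of each replicate (log axis), with host gene and pooled rank on the vertical axis and E for CACGTG within 100 bp of the summit. Hollow squares at the right edge stand for no region within 200 bp, and the dotted line is rank 1500: the highest 13 rows lie left of it in all 3 replicates, and some points overlap.

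Most of the 307 regions were not high in every replicate. A region was counted as recovered when a summit among the first 1500 regions of a replicate lay within 200 bp. Replicate 1 recovered 130 regions, or 42.3% (95% exact interval 36.8 to 48.1), beside 40.5% of all of the first 1500. Replicate 2 recovered 78, or 25.4% (20.6 to 30.7), beside 28.3%, and replicate 3 recovered 83, or 27% (22.1 to 32.4), beside 31.1%. All 3 replicates recovered 27 regions, or 8.79% (5.88 to 12.5), beside 8.67% of all of the first 1500. These shares are near those of the first 1500 as a whole, which include the 307 regions themselves and the regions in exons. Exon regions had a lower share than the intronic ones in each replicate. Replicate 3 recovered 36.4% of regions in promoter windows and 36.1% of those between genes, both above its intronic share. For replicate 2 these shares were 30.7% and 30.1%, and for replicate 1 they were 43.5% and 41.8%. Recovery rests on the same reads as the pooled rank that chose the regions and is given without a test.

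No replicate recovered 108 regions, or 35.2% (29.8 to 40.8). For the other regions of the same selection this share was 27.1% in promoter windows, 29.8% between genes and 46.3% in exons. Of the 307 intronic regions, replicate 1 alone recovered 71, replicate 2 alone 33 and replicate 3 alone 30. Replicates 1 and 3 together recovered 20 more without replicate 2, replicates 1 and 2 recovered 12 without replicate 3, and replicates 2 and 3 recovered 6 without replicate 1. With no limit on rank, 272, 237 and 214 of the 307 had some region within 200 bp in replicates 1, 2 and 3, at median ranks of 1684, 4088 and 3620. One pair of regions in abts-4, at pooled ranks 116 and 295, matched the same region in each replicate and is not independent.

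Recovery fell steeply with pooled rank. Of the 34 reproducible regions, 24 were recovered in all 3 replicates, or 70.6%. Of the 62 at ranks 196 to 500 there were 3, or 4.84%, and of the 107 and 104 at ranks 501 to 1000 and 1001 to 1500 there were 0. The share recovered in no replicate went from 0 of 34 to 8.06%, 38.3% and 59.6% over the same ranks.

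Of the 307 intronic regions, 60 had CACGTG within 100 bp of the summit, or 19.5% (95% exact interval 15.3 to 24.4), beside 17.2% of all of the first 1500. The nearest site lay at a median of 25.5 bp from the summit, and within 25 bp in 30 regions. There was 1 site in 54 regions and 2 in 6, among them Y43F8B.2 and H18N23.2. The related hexamer CACATG, read on both strands, was in 54 regions, or 17.6%. Both hexamers were in 17 regions, CACATG without CACGTG in 37, and neither in 210.

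Intronic regions were compared with the other positions to ask whether the E-box was more frequent in them. CACGTG was in 96 of 602 regions in promoter windows, or 15.9% (13.1 to 19.1), which differed from the intronic share by 3.6 points (two-sided Fisher's exact test, odds ratio 1.28, p = 0.193, adjusted p = 0.386 over 4 tests). It was in 85 of 349 intergenic regions, or 24.4% (19.9 to 29.2), which differed by -4.81 points in the sense of intron minus intergenic (Fisher's exact test, odds ratio 0.754, adjusted p = 0.386). CACATG was in 15.9% of promoter regions and 17.8% of intergenic regions, and neither differed from the intronic share past the threshold (Fisher's exact test, adjusted p = 0.761 and 1). In exons, which were not tested, CACGTG was in 17 of 242 regions, or 7.02%. Among regions recovered in both replicate 1 and replicate 3, whatever replicate 2 gave, CACGTG was in 72.3% of 47 intronic and 46.4% of 112 promoter regions. Those regions were chosen by recovery, which rests on the same reads as the rank, so these shares are given without a test. Over the alternatives that did not choose regions by recovery, Fisher's exact test gave an adjusted p from 0.0966 to 1.

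Intronic regions of the first 1500 held CACGTG far more often than intronic regions further down the pooled list. The hexamer was in 237 of 6431 regions that met the same position rule after rank 1500, or 3.69% (3.24 to 4.17), against 19.5% of the 307 (two-sided Fisher's exact test, odds ratio 6.35, p = 5.42e-24). The difference was 15.9 points. On the list of each replicate by itself, with the rule applied anew, replicate 1 gave 16.9% against 3.24%, replicate 2 gave 9.46% against 3.46% and replicate 3 gave 20.6% against 3.82%. Replicate 2 had the smallest difference, at 6 points (Fisher's exact test, p = 4.22e-06).

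The share with CACGTG fell with rank inside the 307 regions as well. It was 26 of 34, or 76.5% (58.8 to 89.3), in the reproducible regions, and 19 of 62, or 30.6% (19.6 to 43.7), at ranks 196 to 500. It was 10.3% (5.24 to 17.7) of 107 at ranks 501 to 1000 and 3.85% (1.06 to 9.56) of 104 at ranks 1001 to 1500. The last share has an interval that holds the 3.69% of the lower intronic regions. The signal ran from 841.7 to 27.1 in the first of these ranges and from 15 to 13.8 in the last.

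**Figure D2:**
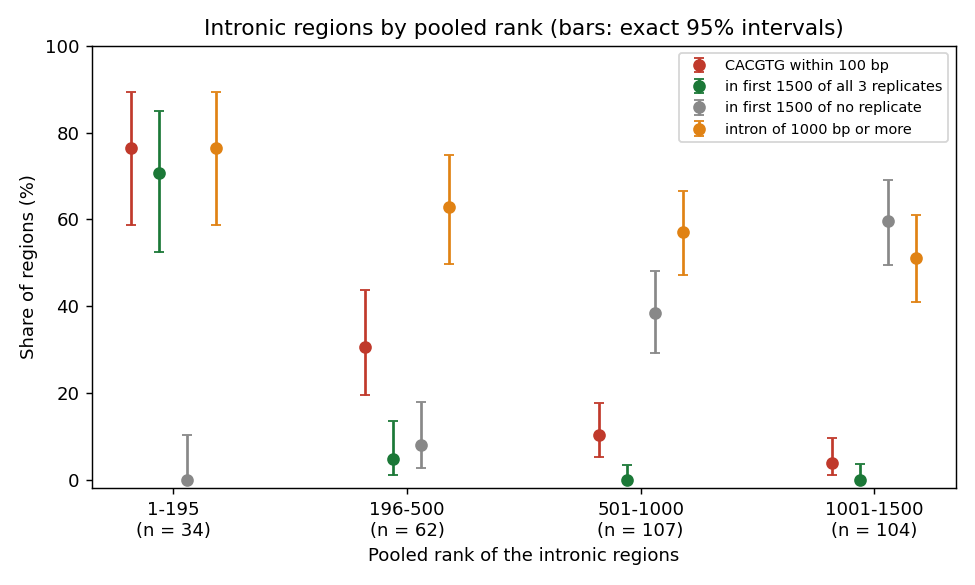
Share of intronic regions (percent, vertical axis) in 4 ranges of pooled rank (horizontal axis), for CACGTG within 100 bp, recovery in all 3 replicates, recovery in none, and a host intron of 1000 bp or more. Bars are exact 95% intervals: the CACGTG share goes from 76.5% to 3.85% and the share recovered in none from 0 to 59.6%.

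Recovery in all 3 replicates is given by CACGTG as counts, since it rests on the same reads as the rank. The counts were 20 of 60 regions with CACGTG, or 33.3% (21.7 to 46.7), and 7 of 247 without, or 2.83% (1.15 to 5.75). Pooled rank moves with both measures. Among the reproducible regions the counts were 20 of 26 with CACGTG, or 76.9%, and 4 of 8 without, or 50%. At ranks 196 to 500 they were 0 of 19 and 3 of 43, and below that 0 in both. Among those 3 was the abts-4 region at pooled rank 295, which matched the same replicate regions as the one with CACGTG at rank 116. The order of the shares at ranks 196 to 500 thus rests on very few regions. With summits matched within 100 bp, the counts over all ranks were 18 of 60 with CACGTG and 3 of 247 without.

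The replicates differed in how far their recovery went with the E-box. Replicate 1 recovered 78.3% of the 60 regions with CACGTG and 33.6% of the other 247, replicate 2 recovered 41.7% and 21.5%, and replicate 3 recovered 70% and 16.6%. Of the 20 regions that replicates 1 and 3 recovered without replicate 2, 14 held CACGTG, or 70%, a share like the 74.1% of those recovered in all 3. Of the 33 that replicate 2 alone recovered, 1 did, or 3.03%, and of the 108 recovered in none, 4 did, or 3.7%. CACGTG was in 20% of the 30 regions that replicate 3 alone recovered and in 12.1% of the 116 that replicate 1 or 2 recovered without replicate 3. Replicate 3 differs from the others in source and preparation, and with 1 such sample this cannot be told apart from the spread between replicates.

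**Figure D3:**
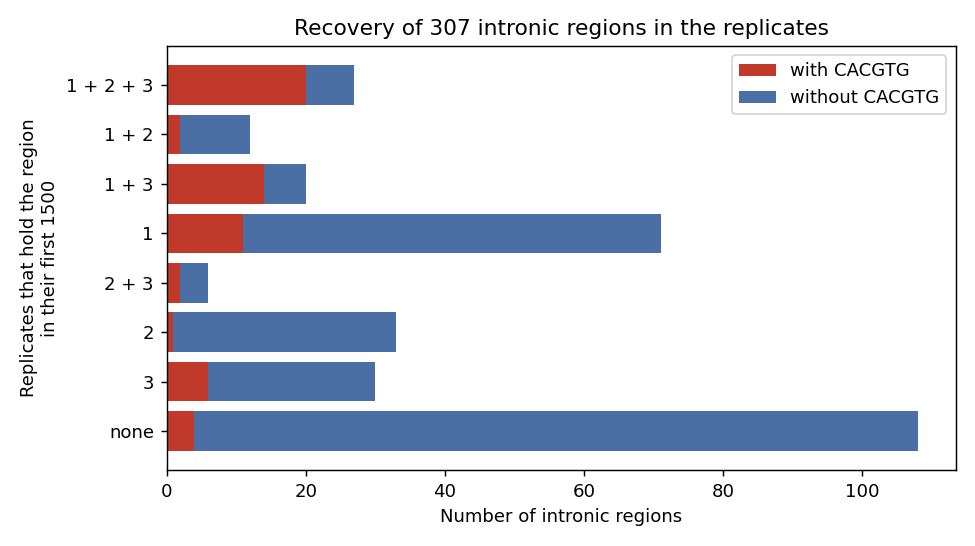
Number of the 307 intronic regions (horizontal axis) by the replicates that hold them among their first 1500 regions (vertical axis), split by CACGTG within 100 bp of the summit. Regions with CACGTG make up 20 of the 27 in all 3 replicates, 14 of the 20 in replicates 1 and 3, and 4 of the 108 in none.

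The bases next to CACGTG were read on both sides of the nearest site, since the hexamer is its own reverse complement. A T stood before it on 54 of 120 sides, or 45%, in the 60 intronic regions, as in the sites of E01G4.3, daf-5 and atf-4 printed above. In the lower intronic regions it stood there on 135 of 474 sides, or 28.5%. A C stood there on 18.3% and 33.8% of sides. These shares are descriptions and were not tested.

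When every hexamer was tried, counting both strands as the same word and so 2080 in all, CACGTG came first (19.5% against 3.69%, Fisher's exact test, adjusted p = 1.13e-20). In all, 200 hexamers, or 9.62%, were more frequent in the 307 regions than in the lower intronic regions, and 84, or 4.04%, were less frequent, at an adjusted p under 0.05. The hexamer GAGAGA came second, in 102 of the 307 regions, or 33.2%, against 12.3% (exact test, adjusted p = 1.77e-17). AGAGAC was in 20.8% against 7.62% and CGTCTC in 16.9% against 5.32% (exact test, adjusted p = 4.13e-10 for both). CACATG was in 17.6% against 7.26% (exact test, adjusted p = 5.63e-07), but on the list of replicate 2 alone it did not pass, at 12.2% against 7.37% (exact test, adjusted p = 0.167). The A- and T-rich hexamer AAAATT was among those less frequent, in 42% against 65.1% (exact test, adjusted p = 9.36e-13).

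Base composition moved with these results. The median GC content within 100 bp of the summit was 40.3% in the 307 regions and 35.8% in the lower ones. With only the regions between 35.3% and 45.8% GC, the quartiles of the 307, 10 hexamers were more frequent. CACGTG was still first, in 25% of 164 regions against 4.95% of 3012, and GAGAGA second, in 35.4% against 15.9% (exact test, adjusted p = 3.83e-13 and 5.2e-06). CACATG passed as well, in 20.7% against 8.76% (exact test, adjusted p = 0.00232), while AGAGAC and CGTCTC did not (adjusted p = 0.0665 and 0.0552). Summits in repeats, which RefSeq marks in lower case, made up 20.8% of the 307 regions and 39.7% of the lower ones.

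GAGAGA was not limited to regions with the E-box. It was in 27 of 60 regions with CACGTG, or 45% (32.1 to 58.4), and in 75 of 247 without, or 30.4% (24.7 to 36.5). Among regions without CACGTG, 133 hexamers, or 6.39%, were more frequent in the first 1500 than further down, and GAGAGA was first among them (exact test, adjusted p = 4.47e-10). The number of hexamers past the threshold differed between replicates when each list was used alone: 73 in replicate 1, 13 in replicate 2 and 116 in replicate 3. CACGTG was first in replicates 1 and 3 and in place 7 in replicate 2. With the first 2500 pooled regions GAGAGA was first, in 30.8% against 11.8%, and CACGTG was in place 4, in 13.7% against 3.67% (exact test, adjusted p = 2.04e-23 and 1.83e-15).

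The introns that held these regions were long. The median length was 1842 bp, from 43 to 21230 bp, against 821 bp for the lower intronic regions. Introns of 1000 bp or more held 179 of the 307, or 58.3%, against 43.8%. The median distance from the summit to the nearest end of the intron was 349 bp, against 163 bp, and to the nearest transcript start 1657 bp, against 1552 bp. The median host gene was 8927 bp long, against 6765 bp. These are descriptions of 2 sets that overlap widely in length.

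Long introns held the E-box more often. CACGTG was in 47 of 179 regions in introns of 1000 bp or more, or 26.3% (20 to 33.3), and in 13 of 128 in shorter introns, or 10.2% (5.52 to 16.7) (two-sided Fisher's exact test, odds ratio 3.15, adjusted p = 0.000699 over 5 tests). On the lists of single replicates the difference was 12.6 to 20.5 points and passed in each. Among the lower intronic regions the shares were 4.66% of 2814 and 2.93% of 3617 (exact test, odds ratio 1.62, adjusted p = 0.000699). The median intron of regions with CACGTG was 4146 bp long, and that of regions without it 1299 bp. Short introns were not without strong sites, as the 289 bp intron of mdl-1 and the 524 bp intron of atf-4 show. Regions with CACGTG had a median GC content of 42.8% against 39.3%, and the part of composition in the difference was not tested. In short introns the 100 bp on each side of a summit can reach into exons, and regions with summits in exons had CACGTG in 7.02%. The share in introns of 1000 bp or more also fell with rank, as CACGTG did, from 76.5% of the reproducible regions to 51% at ranks 1001 to 1500. The parts of exon sequence and of rank were not tested either.

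**Figure D4:**
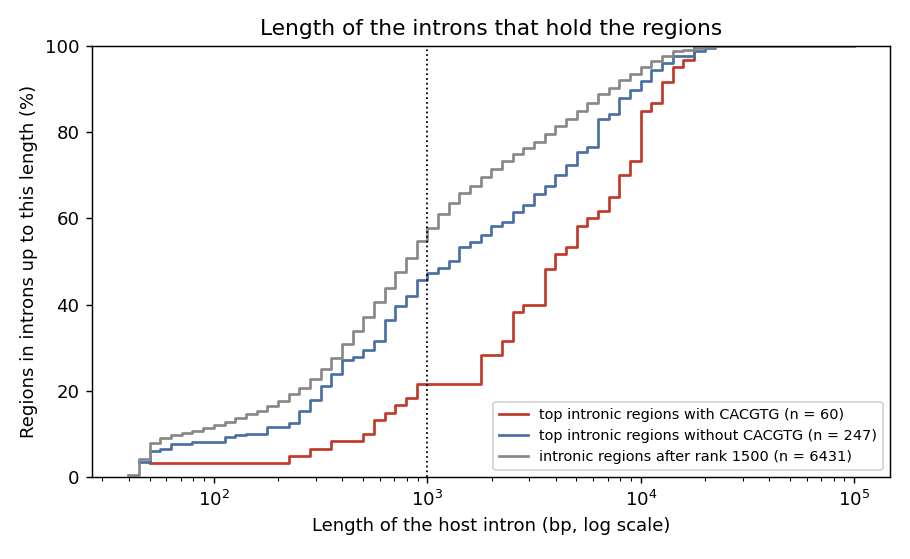
Cumulative share of regions (percent, vertical axis) by the length of the host intron (bp, log axis), for the intronic regions of the first 1500 with and without CACGTG and for intronic regions after rank 1500. The dotted line is 1000 bp: the curve of the 60 regions with CACGTG lies to the right, with a median of 4146 bp against 1299 bp and 821 bp.

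First introns held 88 of the 307 regions, or 28.7% (23.7 to 34.1), against 1469 of 6431 lower intronic regions, or 22.8% (21.8 to 23.9) (two-sided Fisher's exact test, odds ratio 1.36, p = 0.022). The intron was numbered in the transcript of longest coding sequence that had the summit in an intron. Intron 2 held 50 regions, intron 3 held 26, intron 4 held 33, and intron 5 or later 110. The first-intron share was 41.2% in the reproducible regions and 35.5%, 28% and 21.2% in the 3 later ranges of rank. The difference no longer passed the exact test with 1 region per 10 kb cluster (26.4%, p = 0.234) or on the list of replicate 3 alone (27.4% against 23%, p = 0.0843). Some alternatives chose regions in the upper group alone, by recovery in 2 replicates or as reproducible peaks. Their first-intron shares were 35.9% to 42.4%, are given without a test and are not separate support. Over the remaining alternatives the same Fisher's exact test gave p from 0.000879 to 0.0322.

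Chromosome X held 79 of the 307 regions, or 25.7% (20.9 to 31), against 21.7% of the lower intronic regions. Among the other regions of the same selection, it held 22.4% of those in promoter windows, 25.2% of intergenic and 28.9% of exon regions. The intronic share lay among these and was not tested. Of the 34 reproducible intronic regions chromosome X held 35.3% (19.7 to 53.5), an interval that holds 25.7%. The other chromosomes held 39 to 49 regions each. Neighbouring regions on X were the one in mdl-1, the 5 in abts-4 and the one in atg-2, which lay between 6742916 and 6807708.

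A set of the intronic regions lay beside short non-coding RNA genes, most of them in short introns. Within 200 bp of a tRNA, snoRNA, snRNA or miRNA gene there were 25 of the 307 regions, or 8.14% (5.34 to 11.8), against 59 of 6431 lower intronic regions, or 0.917% (0.699 to 1.18) (two-sided Fisher's exact test, odds ratio 9.57, adjusted p = 7.52e-14 over 5 tests). Beside tRNA genes, which RNA polymerase III transcribes, lay 17 of them, beside snoRNA genes 6, beside the snRNA gene R07E5.16 in dhc-4 1, and beside the miRNA gene cel-mir-90 in K01F9.2 1. The median intron around them was 341 bp, against 2232 bp for the other 282 regions.

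These regions followed the replicates unevenly. Replicate 1 recovered 18 of the 25, or 72%, replicate 2 recovered 9, or 36%, and replicate 3 recovered 2, or 8%. For the other 282 regions the shares were 39.7%, 24.5% and 28.7%. Replicate 3 recovered 0 of the 17 regions beside tRNA genes, where replicates 1 and 2 recovered 12 and 5. On the list of replicate 3 alone the excess beside these genes was not past the threshold, at 1.29% against 0.637% (Fisher's exact test, p = 0.152). On the lists of replicates 1 and 2 it was, at 6.63% against 0.877% and 3.72% against 0.815% (exact test, p = 9.2e-12 and 8.34e-05).

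The E-box was rare beside these genes. CACGTG was in 1 of the 25, or 4% (0.101 to 20.4), and in 59 of the other 282, or 20.9% (16.3 to 26.1) (two-sided Fisher's exact test, odds ratio 0.157, p = 0.0374, adjusted p = 0.0468 over 5 tests). The 1 with CACGTG lay in upp-1, pooled rank 377, beside a tRNA gene. It ranked 109 and 20326 in replicates 1 and 2 with no region in replicate 3. The 25 regions lay in shorter introns, with a median of 341 bp against 2232 bp for the other 282. Of the 128 selected regions in introns shorter than 1000 bp, 10.2% held CACGTG. The part of intron length in the difference of CACGTG was not tested. GAGAGA was in 13 of the 25, or 52% (31.3 to 72.2), an interval that holds the 33.2% of all 307 regions. The 4 reproducible regions of this kind were those in cutl-18 and pxn-1 beside snoRNA genes, dhc-4 beside R07E5.16 and C06G1.1 beside a tRNA gene. In cutl-18, a cuticlin-like gene, the ranks were 159, 45 and 301. In pxn-1, a peroxidasin gene, they were 85, 92 and 264. Both snoRNA regions thus ranked lower in replicate 3 but within its first 1500, unlike dhc-4 and C06G1.1.

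The 307 regions lay in 251 host genes. A single region was found in 217 of them, 2 regions in 22, and 3 or more in 12, which together held 46 regions. H18N23.2 on chromosome X held 6, between pooled ranks 24 and 800, spread over 12231 bp of an 18162 bp gene. Of these, 5 lay in its 12745 bp first intron, 3 were reproducible and 2 had CACGTG. At the second of the 2, pooled rank 128, the ranks in replicates 1, 2 and 3 were 1145, 105 and 61. The region at rank 174, without CACGTG, ranked 154, 22036 and 158. The replicate that placed a region lowest was thus not the same along the gene.

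Regions numbered 5 in each of abts-4, T28B11.1 and pkg-2. In abts-4 they had pooled ranks 7, 116, 226, 295 and 1136, and the sites of the first pair had CACGTG. In T28B11.1 all 5 lay in a 17091 bp first intron, and the highest, at pooled rank 95 with CACGTG, ranked 91, 114 and 75. In pkg-2, a cGMP-dependent protein kinase gene, the highest region had no CACGTG, with pooled rank 102 and ranks of 71, 60 and 67. Lower regions of pkg-2 at pooled ranks 162, 248 and 585 had it. In the related kinase gene egl-4 a reproducible region without CACGTG, pooled rank 172, ranked 1015, 18801 and 249.

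In daf-5 the 4 regions lay in a 14446 bp first intron, at pooled ranks 51, 524, 577 and 677, and those at 51 and 524 had CACGTG. The region at rank 524 ranked 1088 and 2478 in replicates 1 and 2, with none in replicate 3. F09A5.3, ZK470.2, nhr-46, zfp-1, rpoa-1, R07E3.7 and cct-5 held 3 each. Both rpoa-1, the gene of the largest subunit of RNA polymerase I, and nhr-46 had CACGTG in 2 of 3 regions, as did F09A5.3. The chromatin gene zfp-1, the chaperonin gene cct-5 and R07E3.7 had it in 0. The regions of zfp-1 lay close in rank, at 300, 373 and 387, and replicate 3 ranked them 238, 231 and 6053.

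**Figure D5:**
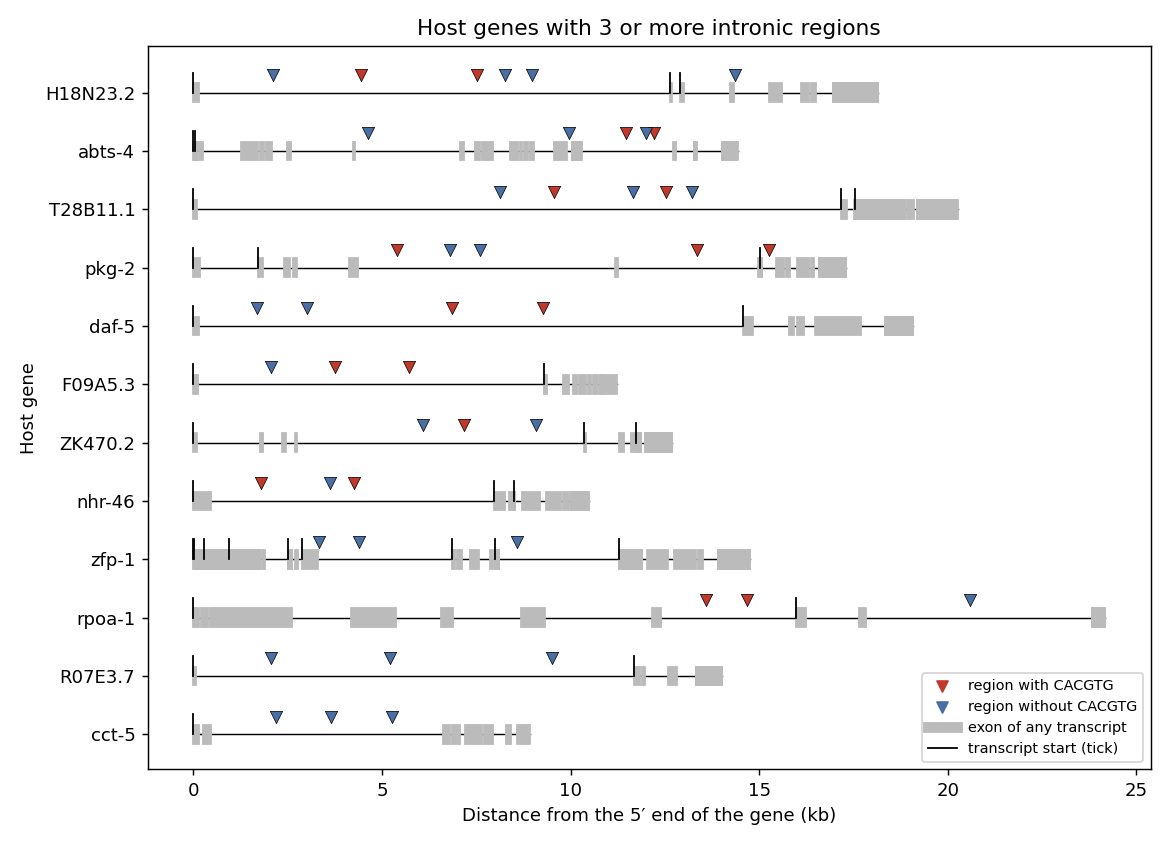
Position of the regions (triangles) along the 12 host genes with 3 or more, as distance from the 5′ end of the gene in kb, with exons of any transcript as grey blocks and transcript starts as ticks. Most regions lie in the long introns, as the 5 in the 12745 bp intron of H18N23.2 and the 5 in the 17091 bp intron of T28B11.1.

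Several host genes belong to pathways linked to Mondo proteins. The lists of genes were chosen with earlier results of these data known, so their counts are descriptions, beside 251 of 4188 genes, or 5.99%, among all genes with any intronic region in the pooled list. In the list of the Mondo, Myc and Max network, which also takes in hlh-30, 2 of 5 genes hosted a region. They were mdl-1, a gene of that network, and hlh-30, the worm homologue of the lysosomal regulator TFEB and not itself a member of the network. Its 2 regions stood at pooled ranks 1442 and 1487, had no CACGTG and were recovered in no replicate. In the autophagy and lysosome list 2 of 3 hosted a region, epg-9 and atg-2. The region of atg-2, which encodes a lipid transfer protein of the autophagosome, had pooled rank 100, held CACGTG and ranked 165, 101 and 171.

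Of the insulin, AMPK and TOR list 4 of 14 genes hosted a region: daf-16, aak-2, skn-1 and aakg-1. In skn-1, the Nrf homologue, the region had pooled rank 293 and no CACGTG, and ranked 468, 890 and 13465. In aakg-1, a gamma subunit of AMP-activated kinase, the region had pooled rank 340 and CACGTG, and ranked 2193, 12111 and 154. The kinase subunit genes aak-2 and aakg-1 both ranked highest in replicate 3, and skn-1 ranked lowest there. A second region in daf-16, at pooled rank 1403, was recovered in replicate 1 only, at rank 259.

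Of the trehalose, glycogen and pentose phosphate list 3 of 8 genes hosted a region, the trehalase genes tre-1 and tre-2 and the glycogen phosphorylase gene pygl-1, all without CACGTG. In tre-1, pooled rank 453, the ranks were 2852, 18412 and 688. In tre-2, pooled rank 1200, they were 752 and 1439 in replicates 1 and 3. In pygl-1, pooled rank 1444, they were 1555 and 18516 in replicates 1 and 2. Of the glycolysis and gluconeogenesis list 1 of 6 did: pck-2, a phosphoenolpyruvate carboxykinase gene, at pooled rank 231 with ranks of 11212, 966 and 185. None of these 4 genes was recovered in all 3 replicates.

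The lists of developmental and tissue genes are set beside the 5.99% of all genes with any intronic region that hosted one. Differences between lists were not tested. None of the 30 homeobox and other developmental factor genes with an intronic region hosted a region of the selection. Nor did any of the 8 fat or 10 moulting and cuticle genes. At the share over all genes, few or no hosts would fall in lists this small, so these counts do not set such genes apart. Of 22 nuclear hormone receptor genes on the list 3 did: daf-12, nhr-23 and nhr-25, at pooled ranks 1137, 1338 and 1375, each without CACGTG and recovered in no replicate. That list holds only part of the receptor family, and receptor genes outside it, such as nhr-19 and nhr-46 above, hosted higher regions with CACGTG. Of 17 muscle genes 3 did: unc-70, the beta spectrin gene, unc-73, the Trio homologue, and itr-1, the IP3 receptor gene, at 350, 793 and 1451. The region in unc-70 lay beside a snoRNA gene. Of 16 Wnt and semaphorin genes cam-1, a Ror receptor gene, hosted 1 at rank 1250, and of 25 neuronal genes nrx-1, the neurexin gene, hosted 1 at rank 695. Neither was recovered in any replicate.

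The signal was nearly flat at the edge of the selection. The last 3 inside, in lfi-1 at rank 1477, hlh-30 at 1487 and ptr-19 at 1490, each had a signal of 13.8. The first 3 intronic regions outside, in Y52B11A.4 at 1504, daam-1 at 1511 and atm-1 at 1515, had 13.8, 13.8 and 13.7. None of the 6 had CACGTG. The region in lfi-1 ranked 294 in replicate 2, and that in ptr-19 had no region within 200 bp in any replicate.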

How the data were processed

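ChIP-seq regions of tagged MML-1 were analysed in 3 replicates of L3 larvae. The signal of each region is the authors' deposited value, on the scale of its own list and made against a control library that was not analysed here, and it served to order the regions of that list and for nothing else. Aligner, peak caller and the threshold behind the reproducible list are not given in the sources. The ce11 lists were used: a list of peaks and background from all replicates pooled, 1 list per replicate and the reproducible list. The ce10 lists were not used.

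Summits were placed on WBcel235 with Ensembl release 115, and coordinates are 1-based. Hexamers were read within 100 bp of the summit on both strands, and replicate summits were matched within 200 bp. Of the intronic regions after rank 1500, 18 had no intron in a protein-coding transcript and were left out. Differences between shares were tested by Fisher's exact test, two-sided, and shares have Clopper-Pearson intervals of 95%, with a threshold of 0.05 and Benjamini-Hochberg adjustment within 3 families: 4 hexamer tests, 5 later tests and 2080 hexamers. The 2 tests of CACGTG and first introns against lower ranks were not adjusted. Comparisons by recovery, planned as a test and 1 of the 5 later tests, are given as counts because recovery and rank share reads. Alternatives that chose regions by recovery are given as shares or differences without a p-value. Intervals cover only the number of regions, and neighbouring regions are not independent.

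The regions, the 12 gene lists and the tests were chosen with earlier results of these data known. The hexamer search and the tests of long introns, of non-coding RNA genes and of replicate 3 were added after values had been seen. Genes named were the hosts of the 20 highest regions, of the 5 highest with and without CACGTG, of 3 or more regions, up to 4 per list, those at the edge of rank 1500, and up to 6 reproducible regions missing from a replicate. The second region in daf-16, upp-1, K01F9.2 and egl-4 fall outside this rule and were chosen after their values were seen. One gene symbol of the lists was not in the annotation, and 0 further columns of per-sample values were found. The hexamer step was tried on random draws from the lower intronic regions, as they were and with the hexamer ACCGGT marked as present in part of each draw. The outcome of that trial is not used as support here. Alternatives varied the number of regions, the promoter and hexamer windows, the matching distance, clustering and the replicates. The software was SciPy 1.17.1 for tests, pandas 2.3.3 and numpy 2.4.6 for tables, matplotlib 3.10.9 for plots, under Python 3.11.15.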

Additional observations from a re-analysis of the deposited data

How the results depend on the processing

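The higher share of CACGTG in the intronic regions of the first 1500 than further down kept its direction and its side of the threshold under all 15 alternatives, at 6 to 72.4 points. So did that in long introns under all 6, at 12.6 to 20.5 points. The alternatives that limit GC content, drop regions with CACGTG, change the length limit, and all those of the hexamer count and the non-coding RNA share were chosen after seeing the data. To leave out a replicate, regions recovered in the first 1500 of both others were used, so the set of regions and the replicates changed together. The 6431 lower intronic regions were not filtered in this way, for CACGTG or for first introns. The CACGTG differences of 52.7 to 68.7 points without a replicate, and of 72.4 with reproducible peaks only, thus rest on a choice made in the upper group alone. They are not separate support. Over the other alternatives the CACGTG difference ran from 6 to 23.9 points.

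Differences below are in points. CACGTG in intron minus intergenic reversed to 11.6 with reproducible peaks only and to 1.39 and 2.27 on the lists of replicates 1 and 3, and ran from 3.03 to 20.8 when a replicate was left out. CACGTG in intron minus promoter reversed to -3.99 on the list of replicate 2, and ran from 15 to 25.9 when a replicate was left out, highest without replicate 2. The sets without a replicate were chosen by recovery and are not separate support. CACATG in intron minus intergenic reversed to 0.774 with the first 1000 regions, 1.56 with promoter windows of 2000 bp before and 500 bp after a start, and 0.452 with hexamers read within 150 bp; without a replicate it ran from -5.67 to -2.93. CACATG in intron minus promoter reversed to -5.05 with reproducible peaks only, -0.00969 with 1 region per 10 kb cluster, and -0.946 and -1.12 on the lists of replicates 1 and 3; without a replicate it ran from -7.81 to 3.42.

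The first-intron difference fell to 3.53 with 1 region per 10 kb cluster and 4.4 on the list of replicate 3, no longer past the threshold, and ran from 13.1 to 19.6 without a replicate. The difference in recovery by CACGTG, given without a test, was 26.9 with reproducible peaks only and ran from 29.8 to 51.4 without a replicate. The non-coding RNA difference was 0.653 on the list of replicate 3. The count of more frequent hexamers went from 200 to 10 within the GC limits, 133 without CACGTG, and 73, 13 and 116 on the lists of replicates 1, 2 and 3. The GC limits and the removal of CACGTG also leave fewer regions, and the cause was not tested in any case. No paired analysis was possible because there is only 1 group of samples.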
